A study of Mus musculus with 9 samples.

Results

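The genes described here are 10 macrophage receptors and identity markers, Adgre1, Cd68, Cd14, Mrc1, Cd163, Lyve1, Siglec1, Vsig4, Marco and Gpnmb, taken by symbol from the 22054 genes of the expression table. Each symbol matched 1 row. They were measured by RNA-seq in 9 libraries of day 7 fracture callus, with 3 libraries in each of 3 groups. All mice were 7-week-old males of the C57BL/6J strain with a femoral fracture, and each received daily intraperitoneal injections of 200 μl for a week. The H-151 group received the STING inhibitor H-151 at 750 nmol, the SR-717 group received the STING agonist SR-717 at 30 mg/kg, and the control group received PBS. The labels name no altered allele, and both drugs were given to the whole animal, not to macrophages alone. The labels name each library a replicate biosample without saying whether it came from 1 animal or from pooled animals, so p-values measure the spread between these libraries.

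Macrophages clear dead cells and matrix at a fracture, and they arise from circulating monocytes or from tissue-resident populations that maintain themselves locally. Surface receptors separate these populations in part, since receptors such as CD163, the mannose receptor and LYVE1 are typical of resident cells. STING senses cyclic dinucleotides in the cytosol and, once active, drives interferon and NF-κB signaling, and macrophages are among the cells that respond to it.

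The tissue label was checked against its markers. All 9 callus tissue markers, among them the bone matrix genes Col1a1 and Ibsp, were tested in every comparison, and their summed TPM ranged from 8010 in SR-717 replicate 1 to 22200 in PBS replicate 2. TPM is the deposited expression value scaled for gene length and library total. The 16 other macrophage genes summed to between 4890 and 12800 TPM, so macrophage RNA was present in every library. Genes of skeletal muscle summed to between 5740 and 31300 TPM. A library held between 16987398 and 23272480 counts. SR-717 replicate 1 stood apart from the rest. It lay at 101 on the first principal component, which held 46.6% of the variance, while PBS replicate 1 lay at 38.8 and the other 7 libraries lay between -28.8 and -4.03. Cartilage RNA was low in the same pair. Col2a1, the main cartilage collagen, stood at 50.1 CPM (counts scaled to a common library size) in SR-717 replicate 1 and 857 CPM in PBS replicate 1, against 2570 to 10600 CPM in the other 7, and Col10a1, the collagen of hypertrophic cartilage, at 8.93 and 170 CPM against 406 to 2360 CPM. The part of this tissue difference in the macrophage values was not tested. Both collagens were named after their values were seen. Where leaving out one of these libraries moved a macrophage gene's fold change by over 1.5 times, that value is given.

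Promoter sequences are given first, for Marco, Mrc1 and Cd68, which were all highest in the same library, and for Gpnmb, which was not. These genes were picked on their levels here, and a link between motif and level was not tested. The windows cover 250 bases before and 50 bases after the RefSeq start site, read on the gene's strand from GRCm38.p6. RefSeq windows were searched for 6 of the 10 genes. Capitals mark GAGGAA, the core bound by ETS factors such as the macrophage regulator PU.1, and TGANTCA, the AP-1 motif, each on either strand and without overlap between the motifs here. Marco, a scavenger receptor for bacteria and particles, spans chr1:120474538-120505024 on the minus strand, and its window is chr1:120504975-120505274. Mrc1, the mannose receptor, spans chr2:14229392-14332057 on the plus strand, and its window is chr2:14229164-14229463. Cd68, a lysosomal glycoprotein, spans chr11:69664213-69666153 on the minus strand, and its window is chr11:69666121-69666420. Gpnmb, a transmembrane glycoprotein of phagolysosomes, spans chr6:49036546-49070929 on the plus strand, and its window is chr6:49036268-49036567.
Marco: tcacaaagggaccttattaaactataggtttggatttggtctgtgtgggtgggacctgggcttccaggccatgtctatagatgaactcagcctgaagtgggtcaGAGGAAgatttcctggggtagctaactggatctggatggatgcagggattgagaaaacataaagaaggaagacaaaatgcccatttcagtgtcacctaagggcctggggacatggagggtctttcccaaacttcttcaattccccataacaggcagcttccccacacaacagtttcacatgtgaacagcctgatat
Mrc1: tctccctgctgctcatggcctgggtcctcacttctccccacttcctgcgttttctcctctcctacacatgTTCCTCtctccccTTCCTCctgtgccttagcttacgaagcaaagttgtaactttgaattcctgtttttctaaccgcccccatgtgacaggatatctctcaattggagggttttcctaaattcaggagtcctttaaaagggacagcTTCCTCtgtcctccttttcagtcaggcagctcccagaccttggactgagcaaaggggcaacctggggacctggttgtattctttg
Cd68: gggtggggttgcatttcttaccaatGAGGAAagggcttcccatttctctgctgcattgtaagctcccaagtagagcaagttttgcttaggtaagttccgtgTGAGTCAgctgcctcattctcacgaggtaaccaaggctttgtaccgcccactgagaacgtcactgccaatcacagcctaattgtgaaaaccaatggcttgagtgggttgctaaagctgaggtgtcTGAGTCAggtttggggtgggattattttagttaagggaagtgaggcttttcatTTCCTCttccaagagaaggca
Gpnmb: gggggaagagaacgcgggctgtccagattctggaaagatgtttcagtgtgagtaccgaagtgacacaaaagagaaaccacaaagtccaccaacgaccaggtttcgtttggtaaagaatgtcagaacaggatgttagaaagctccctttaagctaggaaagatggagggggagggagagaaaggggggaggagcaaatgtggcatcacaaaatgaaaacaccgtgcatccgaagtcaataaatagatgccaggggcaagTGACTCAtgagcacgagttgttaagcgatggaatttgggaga

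GAGGAA occurred once in the Marco window, 3 times in that of Mrc1 and 2 times in that of Cd68, and it was not found in that of Gpnmb. Among 32544 mouse promoter windows of the same length, 28.1% held it. The AP-1 motif occurred 2 times in the Cd68 window and once in that of Gpnmb, against 7.79% of all windows. None of the 6 windows held the interferon response core GAAANNGAA, the E-box CACGTG or the M-box TCATGTG, which 8.53%, 7.17% and 3.79% of all windows held. The Vsig4 window, chrX:96293389-96293688, held GAGGAA 2 times, and the Cd163 window, chr6:124304401-124304700, held none of the 5 motifs. A match is a description of the letters only.

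In TPM, Cd68 was highest, with a median of 434 and a range of 319 to 547, and it exceeded Gpnmb (141 to 257 TPM) in 9 of 9 libraries. Gpnmb exceeded Cd14 in 7 of 9 libraries, because Cd14 ranged from 17.6 to 782 TPM. Cd14 exceeded Adgre1 in 3 of 9 libraries, so their order by mean TPM, 142 for Cd14 and 55.7 for Adgre1, was set by those libraries. Adgre1 exceeded Mrc1 (7.41 to 27.5 TPM) in all 9. Siglec1 and Lyve1 had medians of 4.89 and 4.84 TPM and could not be ordered, with Siglec1 higher in 4 of 9 libraries. Marco (median 0.698 TPM) and Cd163 (median 0.788 TPM) could not be ordered either, whereas Cd163 exceeded Vsig4 (0.076 to 0.718 TPM) in all 9 libraries.

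The groups overlapped for every gene of the 10 in every comparison, and how often they overlap among all genes was not computed. No gene of the 10 passed an adjusted p under 0.05 in any of the 3 comparisons. The share of all tested genes passing was 0% each time by edgeR's quasi-likelihood test, with a smallest Benjamini-Hochberg adjusted p of 1 for SR-717 against PBS, 1 for H-151 against PBS and 0.996 for SR-717 against H-151. At an unadjusted p under 0.05 there were 97, 91 and 146 genes of 14070, 14085 and 14151 tested. DESeq2 called 1 gene at an adjusted p under 0.05 for SR-717 against H-151, which was none of the 10. Vsig4 fell below the low-count filter, so 9 of the 10 genes were tested. At the thresholds the study states, p under 0.05 with a change of at least 1.5-fold, with p taken here as unadjusted because the study does not say, 0 of 9 passed for SR-717 against PBS, 1 (Cd163, higher) for H-151 against PBS and 0 for SR-717 against H-151. The background at these thresholds was 0.27% of genes higher and 0.249% lower in SR-717 than in PBS, 0.263% higher and 0.163% lower in H-151 than in PBS, and 0.367% higher and 0.389% lower in SR-717 than in H-151.

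**Figure D1:**
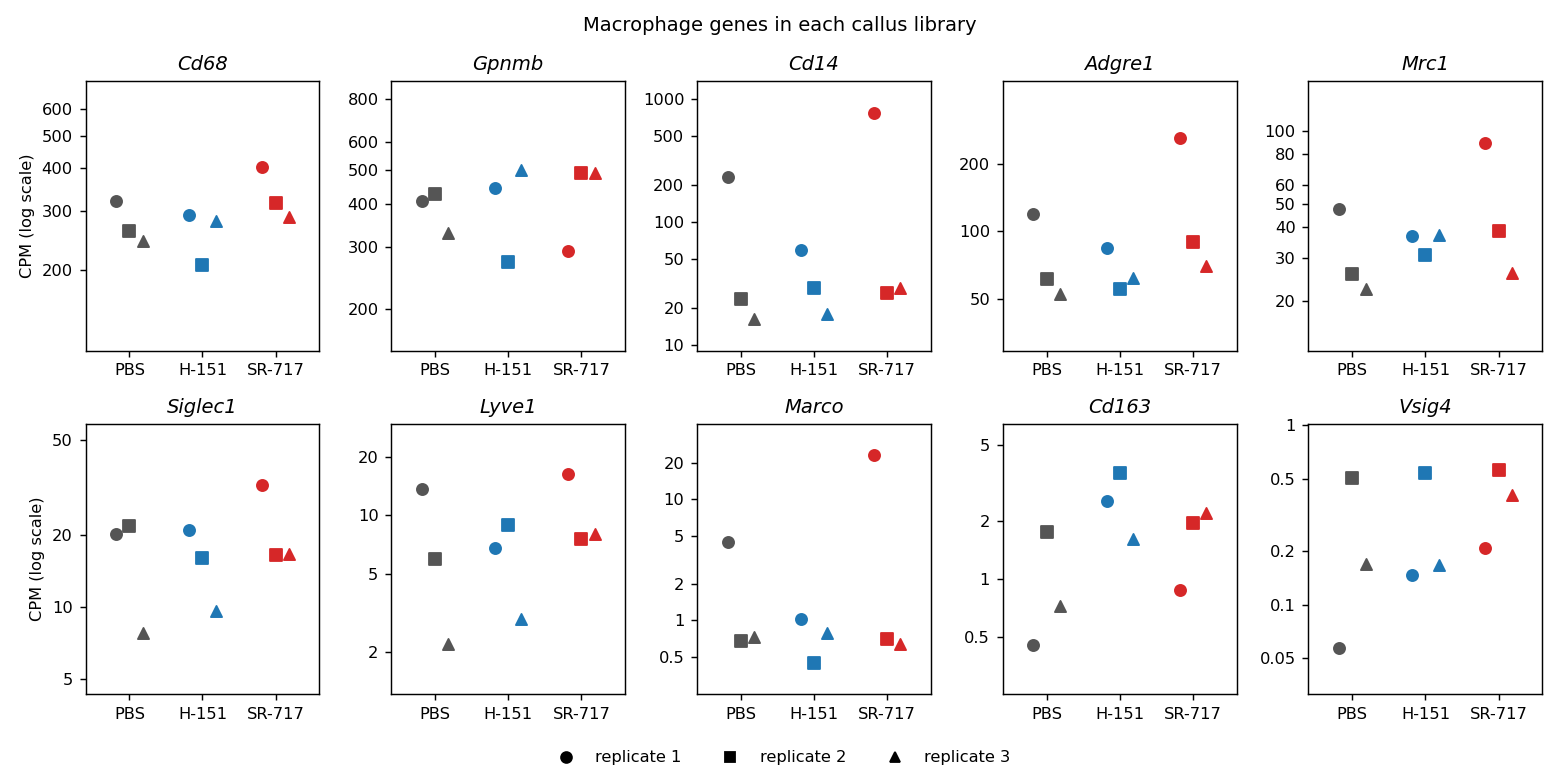
Level of each gene in each library, in CPM on a log axis, by group, with the marker shape giving the replicate number. SR-717 replicate 1 is the highest of the 9 libraries for 7 of the 10 genes, with Cd14 at 770 and Marco at 23 CPM, and lies below the median for Gpnmb and Cd163.

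Adgre1 encodes the adhesion receptor recognized by the classical mouse macrophage antibody, and lies at chr17:57358691-57483527 on the plus strand. Its level, in CPM scaled by TMM, was 120, 61.4 and 52.5 in PBS replicates 1 to 3, 84.6, 55.1 and 62.0 in H-151 replicates 1 to 3, and 263, 89.7 and 69.9 in SR-717 replicates 1 to 3. Replicate 1 was the highest library in all 3 groups, and each SR-717 library exceeded the PBS library of its number, by 2.19, 1.46 and 1.33 times. Adgre1 differed by a log2 fold change of 0.86 ± 0.58 (SE) between SR-717 and PBS, and of 1.06 ± 0.52 between SR-717 and H-151, and passed no threshold in either. Between H-151 and PBS it was -0.21 ± 0.34. Without SR-717 replicate 3 the difference from H-151 was 1.38 ± 0.47, past the study's thresholds, and without SR-717 replicate 1 it was 0.24 ± 0.22. The deviations of same-numbered SR-717 and PBS libraries correlated at 0.65, 0.341 and 0.139 for numbers 1 to 3, and SR-717 replicate 3 was most like PBS replicate 2, so the pairing of number 3 is weak. With the number as a block the difference from PBS was 0.70 ± 0.20 (adjusted p = 0.999, edgeR), past the study's thresholds. Under this block 443 genes in all passed those thresholds, against 73 without it, and 342 of the 443 were higher. Without SR-717 replicate 1 the difference from PBS was 0.03 ± 0.40, without PBS replicate 1 it was 1.31 ± 0.64, and without both libraries numbered 1 it was 0.51 ± 0.20. In bulk RNA, fewer cells of a type and less RNA per cell cannot be told apart.

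Cd68 varied least after Gpnmb, by 1.95 times between the highest and the lowest library. It stood at 320, 261 and 244 CPM in PBS, 290, 207 and 279 CPM in H-151, and 404, 315 and 286 CPM in SR-717. Each SR-717 library again exceeded the PBS library of the same number, by 1.26, 1.21 and 1.17 times. For Marco, Siglec1 and Gpnmb 2 of the 3 SR-717 libraries did so. The share of all genes with all 3 pairs higher was not computed. Neither the log2 fold change against PBS, 0.28 ± 0.20, nor that against H-151, 0.36 ± 0.20, passed a threshold, and H-151 differed from PBS by -0.09 ± 0.19.

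Cd14, the co-receptor that hands lipopolysaccharide to TLR4, varied 47.6-fold between the highest and the lowest library, as against 51.9-fold for Marco. It stood at 229, 23.5 and 16.2 CPM in PBS, 58.6, 29.1 and 17.8 CPM in H-151, and 770, 26.5 and 28.8 CPM in SR-717. Replicate 1 was the highest library in each group, and SR-717 replicate 1 was 27.8 times the median of the other 8 libraries. PBS replicate 1 was 11.5 times the mean of PBS replicates 2 and 3, so Cd14 was high in a control library as well. Between SR-717 and PBS, Cd14 differed by a log2 fold change of 1.62 ± 1.61, which turned to -1.71 ± 1.21 without SR-717 replicate 1 and was 3.79 ± 1.84 without PBS replicate 1. With the replicate block it was 0.92 ± 0.34, past the study's thresholds, and with both replicates 1 left out it was 0.49 ± 0.24. Between SR-717 and H-151 it was 2.95 ± 1.42, and -0.36 ± 0.46 without SR-717 replicate 1. It was 3.49 ± 1.27 without SR-717 replicate 2 and 3.49 ± 1.28 without SR-717 replicate 3, both past the study's thresholds. Between H-151 and PBS it was -1.35 ± 1.02, and 0.83 ± 0.53 without PBS replicate 1.

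Marco rested on 9 to 21 counts in 7 libraries and was high in the same pair as Cd14. Counts were 78, 16 and 13 in PBS, 21, 9 and 14 in H-151, and 446, 15 and 11 in SR-717. On the CPM scale SR-717 replicate 1 reached 23, PBS replicate 1 reached 4.45, and the other 7 libraries lay between 0.444 and 1.03. Marco differed by a log2 fold change of 2.06 ± 1.55 between SR-717 and PBS, 3.42 ± 1.5 between SR-717 and H-151 and -1.36 ± 0.82 between H-151 and PBS. The first was 3.52 ± 1.92 without PBS replicate 1. Without SR-717 replicate 1 the first turned to -1.53 ± 1.00 and the second to -0.16 ± 0.48, while without SR-717 replicate 2 or SR-717 replicate 3 the second was 3.96 and past the study's thresholds. The difference between H-151 and PBS was 0.11 ± 0.49 without PBS replicate 1. The TPM of Marco in SR-717 replicate 3 was 1.74, which is 2.71 TPM for each CPM against 0.864 to 1.07 in the other libraries, so the CPM is used for Marco.

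In summed TPM, SR-717 replicate 1 was also highest in the neutrophil and monocyte markers, and PBS replicate 1 lay within the range of the rest. The 10 neutrophil markers summed to 35000 TPM in SR-717 replicate 1 and to between 1500 and 12100 TPM elsewhere, and PBS replicate 1 (9730 TPM) was not above H-151 replicate 1 (12100 TPM) or H-151 replicate 2 (10800 TPM). S100a9, a neutrophil alarmin, stood at 5240 CPM in SR-717 replicate 1 and between 184 and 1200 CPM elsewhere. The 10 monocyte markers summed to 4800 TPM in SR-717 replicate 1 and to between 1190 and 3160 TPM elsewhere, with PBS replicate 1 at 2740 TPM. Fn1, the monocyte marker of highest mean TPM (1200), stood at 914 TPM in PBS replicate 1 and 634 TPM in SR-717 replicate 1. Elsewhere Fn1 lay between 784 and 1770 TPM, and the monocyte sum without Fn1 was not computed. Single genes of these lists went both ways in PBS replicate 1. Hp, a monocyte marker, stood there at 776 CPM, against 64.3 to 221 CPM in the libraries other than SR-717 replicate 1. Csf3r, a neutrophil marker, stood at 143 CPM against 15.4 to 93.2 CPM in those libraries. Ngp, another neutrophil marker, stood at 768 CPM against 133 to 1430 CPM. Neutrophils and monocytes carry CD14 too, and the part of these cells in the levels of Cd14 and Marco was not tested. Of the 10 partners of CD14 and TLR4, none passed the study's thresholds in any comparison. Their median log2 fold change was 0.49 between SR-717 and PBS, against 0.01 over all genes, and -0.05 without SR-717 replicate 1. Lbp, the lipopolysaccharide-binding protein that loads CD14, stood at 94.7 CPM in SR-717 replicate 1 and between 31.0 and 67.4 CPM in the other 8 libraries. Myd88, an adaptor of the toll-like receptors, was likewise highest in SR-717 replicate 1. Not every partner followed, since Ticam1 was lowest there, at 20.3 CPM against 21.2 to 31.7 CPM elsewhere. Ly96 stood at 6.66 CPM there, within its range of 3.01 to 7.99 CPM elsewhere.

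**Figure D2:**
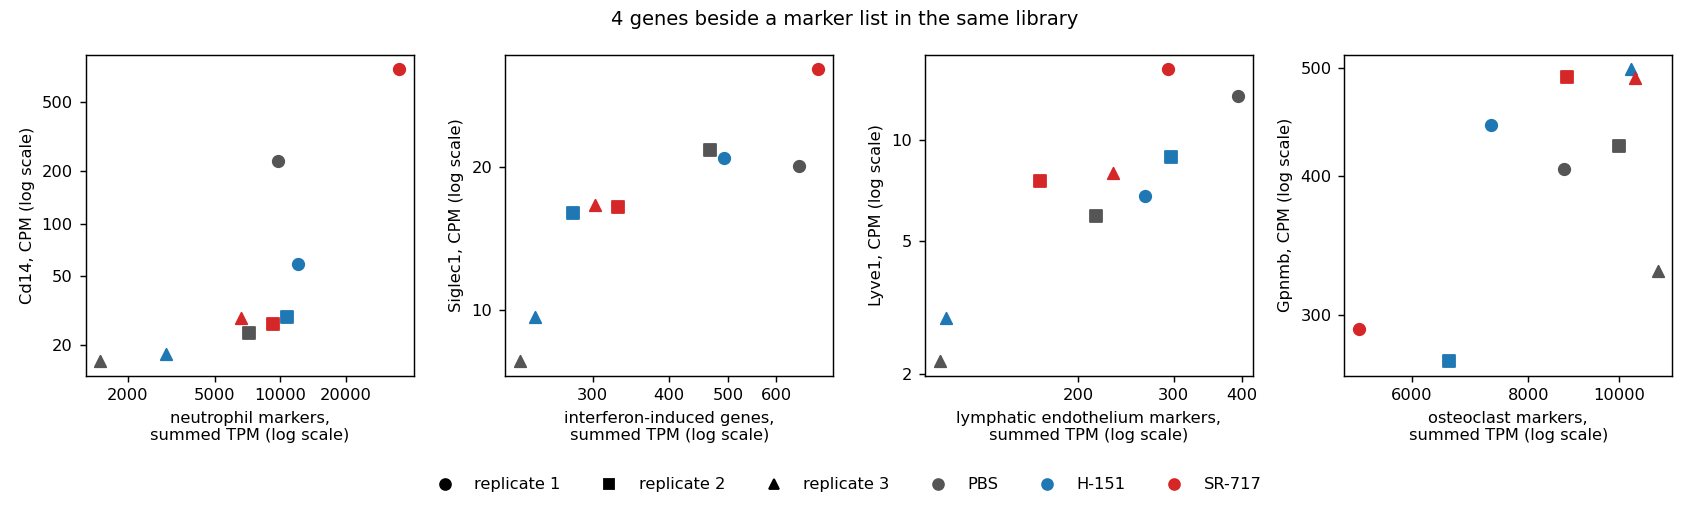
Cd14, Siglec1, Lyve1 and Gpnmb (CPM, log scale) against the summed TPM (log scale) of neutrophil, interferon-induced, lymphatic endothelium and osteoclast genes, with 1 point per library, the colour giving the group and the shape the replicate number. PBS replicate 1 has a Cd14 of 229 CPM at 9730 TPM of neutrophil markers, while H-151 replicate 1 has 58.6 CPM at 12100 TPM.

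Mrc1, the mannose receptor of resident and alternatively activated macrophages, had a narrow range in the H-151 group. It stood at 47.5, 25.7 and 22.4 CPM in PBS, 37.0, 30.8 and 37.1 CPM in H-151, and 88.8, 38.8 and 26 CPM in SR-717. Each SR-717 library exceeded the PBS library of its number, by 1.87, 1.51 and 1.16 times. Mrc1 differed by a log2 fold change of 0.69 ± 0.52 between SR-717 and PBS, and with the replicate block by 0.57 ± 0.19, which was past the p threshold and short of 1.5-fold. Without SR-717 replicate 1 it was 0.03 ± 0.39, and without PBS replicate 1 it was 1.09 ± 0.56. Between H-151 and PBS it was 0.14 ± 0.29, and 0.55 ± 0.16 without PBS replicate 1, again past the p threshold and short of 1.5-fold. Between SR-717 and H-151 it was 0.54 ± 0.44, and -0.11 ± 0.20 without SR-717 replicate 1.

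Cd163, the receptor that takes up hemoglobin bound to haptoglobin, was the gene that passed the study's thresholds. Counts were 8, 42 and 13 in PBS, 52, 72 and 29 in H-151, and 17, 42 and 38 in SR-717. In CPM these were 0.457, 1.77 and 0.730 in PBS, 2.55, 3.55 and 1.61 in H-151, and 0.878, 1.97 and 2.22 in SR-717. Each H-151 library exceeded the PBS library of its number, by 5.58, 2.01 and 2.21 times, although the lowest H-151 library lay below the highest PBS library. The log2 fold change between H-151 and PBS was 1.35 ± 0.56 (adjusted p = 1, edgeR), and with the replicate block 1.46 ± 0.40. The block raised the count of all genes past the study's thresholds from 60 to 262 in this comparison. The call was lost without PBS replicate 1 (1.03 ± 0.54), PBS replicate 3 (1.17 ± 0.63), H-151 replicate 1 (1.37 ± 0.68) or H-151 replicate 2 (1.05 ± 0.64). PBS replicate 1 and SR-717 replicate 1, in which Cd14 and Marco were highest, were each the lowest library of their group for Cd163. The difference between H-151 and PBS was 2.12 ± 0.50 without PBS replicate 2, which held the highest PBS level. Between SR-717 and PBS it differed by 0.75 ± 0.61, and by 1.5 ± 0.59 without PBS replicate 2, and between SR-717 and H-151 by -0.62 ± 0.46.

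Vsig4, a complement receptor of resident macrophages at chrX:96247203-96293438 on the minus strand, was close to 0. Counts were 1, 12 and 3 in PBS, 3, 11 and 3 in H-151, and 4, 12 and 7 in SR-717. Replicate 2 was the highest library in each group, and the counts allow no comparison between treatments. Clec4f, a marker of liver Kupffer cells, was at 0 in 7 libraries.

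Lyve1, a hyaluronan receptor of lymphatic endothelium and of some resident macrophages, lies at chr7:110850607-110863239 on the minus strand. It stood at 13.6, 5.96 and 2.19 CPM in PBS, 6.81, 8.92 and 2.94 CPM in H-151, and 16.3, 7.55 and 8.00 CPM in SR-717. PBS replicate 3 and H-151 replicate 3 were the lowest libraries. Lyve1 differed by a log2 fold change of 0.55 ± 0.67 between SR-717 and PBS, -0.21 ± 0.67 between H-151 and PBS and 0.76 ± 0.49 between SR-717 and H-151. The first was 0.10 ± 0.71 without SR-717 replicate 1, 0.12 ± 0.52 without PBS replicate 3 and 1.38 ± 0.60 without PBS replicate 1, and the second was 0.61 ± 0.62 without PBS replicate 1. The 7 lymphatic markers summed to 111 TPM in PBS replicate 3 and 114 TPM in H-151 replicate 3, the lowest 2 sums, and to between 170 and 394 TPM in the others. Ccl21a, a chemokine of lymphatic endothelium, was lowest in the same pair, at 27.1 and 31.8 CPM. The part of lymphatic vessels in the Lyve1 level was not tested.

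Siglec1, the sialic acid receptor of marrow and lymph node macrophages that interferon induces, lies at chr2:131069220-131086765 on the minus strand. It stood at 20.1, 21.8 and 7.81 CPM in PBS, 20.9, 16 and 9.67 CPM in H-151, and 32.2, 16.5 and 16.7 CPM in SR-717. Siglec1 differed by a log2 fold change of 0.39 ± 0.46 between SR-717 and PBS, -0.10 ± 0.44 between H-151 and PBS and 0.48 ± 0.39 between SR-717 and H-151. Without SR-717 replicate 1 the difference from PBS was 0.00098 ± 0.45. The 15 interferon-induced genes summed to 654, 467 and 228 TPM in PBS, 492, 279 and 241 TPM in H-151, and 704, 330 and 303 TPM in SR-717. Siglec1 and this sum were both highest in SR-717 replicate 1 and lowest in PBS replicate 3 and H-151 replicate 3. None of the 15 passed in any comparison. Between SR-717 and PBS 9 of 15 were higher, at a median log2 fold change of 0.05 against 0.01 over all genes, of which 52.2% were higher. In H-151, 0 of 15 were higher than in PBS, at a median of -0.47, with 44.2% of all genes higher, and without PBS replicate 1 the median was 0.04. Between SR-717 and H-151 15 of 15 were higher, at a median of 0.57, with 53.4% of all genes higher, and without SR-717 replicate 1 the median was -0.16. The part of interferon signaling in the Siglec1 level was not tested.

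Gpnmb, a glycoprotein of phagolysosomes that osteoclasts also make, followed another order. It stood at 406, 426 and 329 CPM in PBS, 445, 273 and 499 CPM in H-151, and 292, 491 and 490 CPM in SR-717. SR-717 replicate 1, where 7 of the 10 genes were highest, held 0.671 times the median Gpnmb of the other 8 libraries. Gpnmb differed by a log2 fold change of 0.13 ± 0.25 between SR-717 and PBS, 0.07 ± 0.25 between H-151 and PBS and 0.06 ± 0.30 between SR-717 and H-151. The 10 osteoclast markers, led by the protease Ctsk, summed to 8740, 10000 and 11000 TPM in PBS, 7300, 6570 and 10300 TPM in H-151, and 5270, 8790 and 10400 TPM in SR-717. H-151 replicate 2 and SR-717 replicate 1 held the 2 lowest values of both Gpnmb and the osteoclast sum, while PBS replicate 3 held the highest osteoclast sum and the next lowest Gpnmb. Melanocyte markers, from the other well-known source of Gpnmb, summed to between 0.397 and 1.66 TPM. The part of osteoclasts in the Gpnmb level was not tested.

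**Figure D3:**
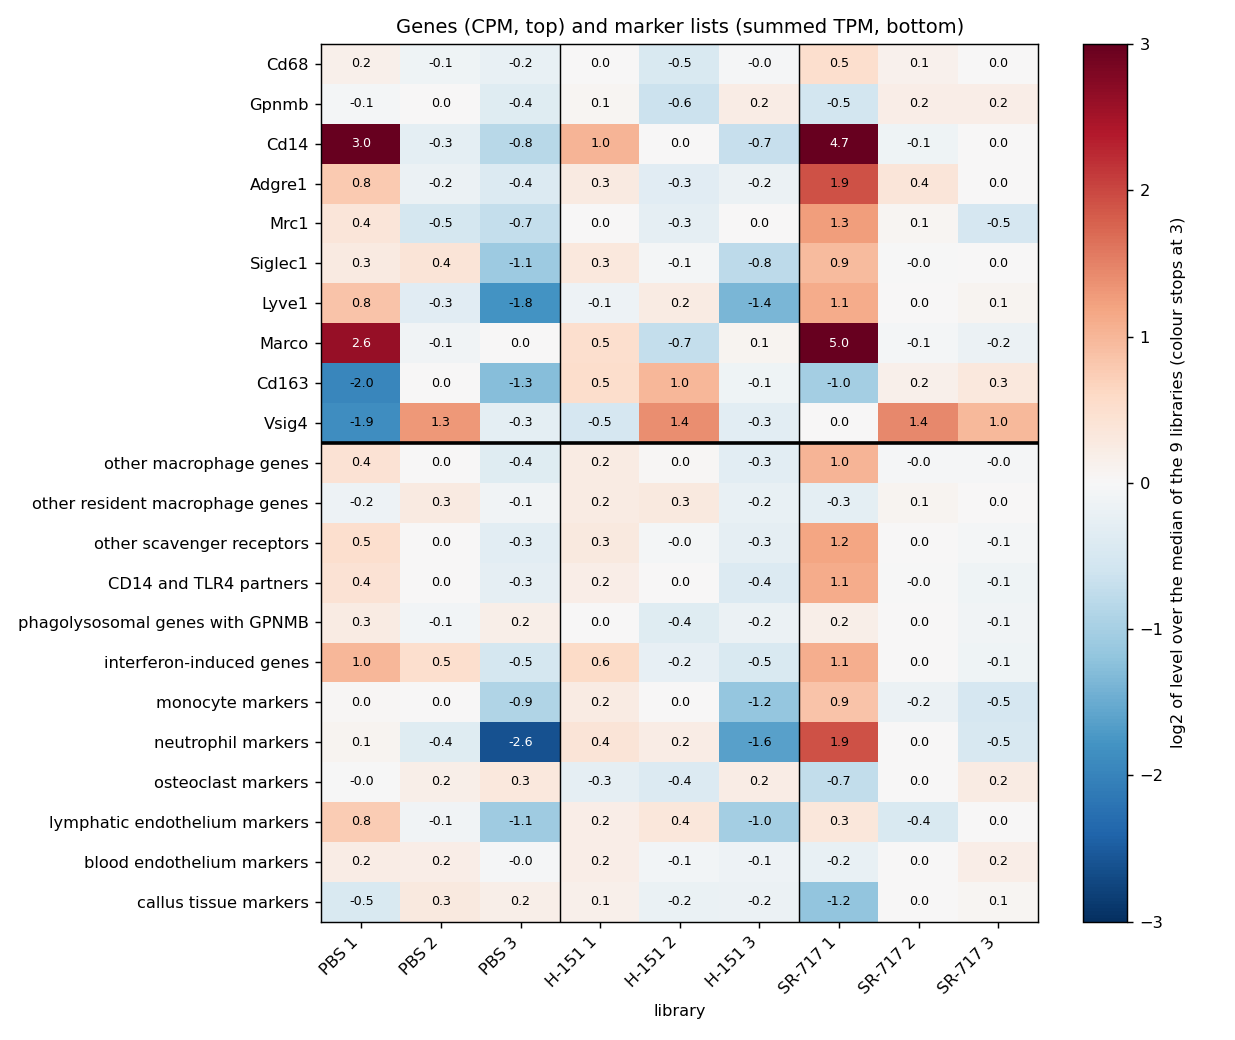
Log2 of each gene's CPM (top) and of each marker list's summed TPM (bottom) over its median across the 9 libraries, with libraries in columns and the value printed in each cell. SR-717 replicate 1 and PBS replicate 1 are high for Cd14 and Marco and low for Cd163, and SR-717 replicate 1 is low for the osteoclast and callus lists.

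The 9 tested genes had a median log2 fold change of 0.68 between SR-717 and PBS, with 9 of 9 higher, against 0.01 over all genes. In the same comparison the 10 neutrophil markers had a median of 1.65 with 10 of 10 higher, and the 10 monocyte markers a median of 1.08 with 9 of 10 higher. These medians were 0.49 and 0.16 without SR-717 replicate 1. Without SR-717 replicate 1 the median of the 9 genes was 0.03, and with the replicates numbered 1 left out of both groups it was 0.47. Between H-151 and PBS the median was -0.10, with 3 of 9 higher (Cd163, Mrc1 and Gpnmb), against -0.02 over all genes. Between SR-717 and H-151 it was 0.54, with 8 of 9 higher and Cd163 lower, against 0.02 over all genes, and it was 0.15 without SR-717 replicate 1. These comparisons share their groups of libraries in pairs, so the 3 medians are not independent.

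**Figure D4:**
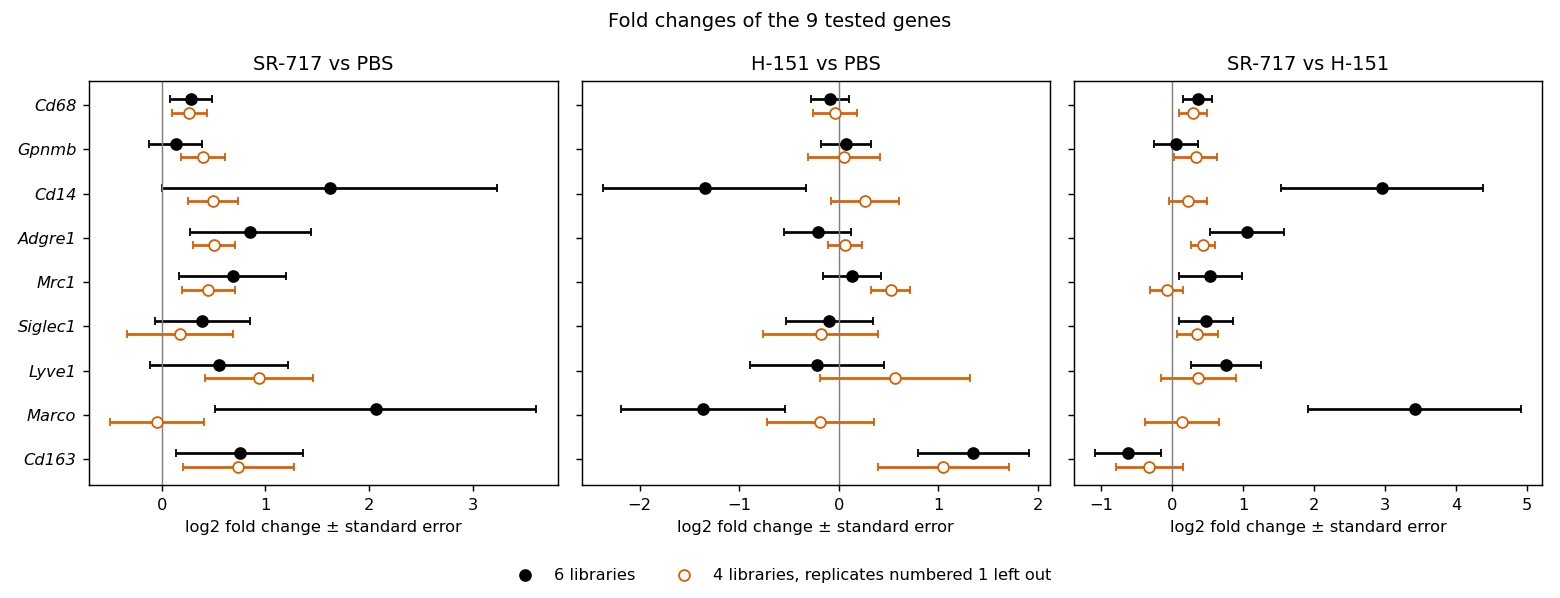
Log2 fold change of the 9 tested genes in the 3 comparisons, with bars of 1 standard error, for all 6 libraries (filled) and for the 4 libraries left without the replicates numbered 1 (open). The differences of Cd14 and Marco shrink without the replicates numbered 1, to 0.49 and -0.04 between SR-717 and PBS.

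The wider macrophage lists gave no gene past an adjusted p under 0.05. Of 16 other macrophage genes, 13 were higher in SR-717 than in PBS with a median log2 fold change of 0.40, 3 were higher in H-151 than in PBS with a median of -0.19, and 15 were higher in SR-717 than in H-151 with a median of 0.52, none past the study's thresholds. Leaving out SR-717 replicate 1 gave medians of -0.03 against PBS and 0.11 against H-151, and leaving out PBS replicate 1 gave 0.06 between H-151 and PBS. Lyz2, the lysozyme of myeloid cells, stood at 6590 CPM in SR-717 replicate 1 and between 2190 and 3570 CPM elsewhere. Tyrobp, a signaling adaptor of myeloid receptors, stood at 531 CPM there and between 209 and 293 CPM elsewhere. Of 13 tested resident macrophage genes, 2 passed the study's thresholds between SR-717 and PBS, both higher, against 0.27% of all genes, and 1 between SR-717 and H-151, against 0.367%. Spic, the regulator of red pulp and marrow macrophages that recycle iron, stood at 3.14, 2.20 and 2.58 CPM in PBS, 1.91, 2.41 and 2.28 CPM in H-151, and 5.47, 3.99 and 3.62 CPM in SR-717, so the SR-717 libraries lay above the other 6. The share of all genes separated in this way was not computed. Its log2 fold change was 0.72 against PBS and 0.97 against H-151, past the study's thresholds in both and past an adjusted p in neither. The difference from H-151 stayed past the study's thresholds without any 1 library, at 0.78 or more, and not without both replicates numbered 1 (0.68 ± 0.31), and the difference from PBS was past them when PBS replicate 1 was left out (0.87) and not without any other library, at 0.53 without SR-717 replicate 1. Cd209f, a lectin receptor, lay between 0.169 and 2.74 CPM and differed by a log2 fold change of 1.64 between SR-717 and PBS, past the thresholds also without PBS replicate 1 (2.39) and not without any other library, at 1.21 to 1.83. The resident list as a whole had a median of 0.12 between SR-717 and PBS, with 9 of 13 higher, and of -0.0081 between SR-717 and H-151, with 6 of 13 higher, and its summed TPM in SR-717 replicate 1 was the lowest of the 9, at 381 against 400 to 571.

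Of 13 other scavenger receptors, 1 passed the study's thresholds, Cd36, the fatty acid and thrombospondin receptor, which was higher in H-151 than in PBS by a log2 fold change of 0.66 ± 0.24, against 0.263% of all genes. In SR-717 it differed from PBS by 0.68 ± 0.30, which missed the p threshold, and from H-151 by 0.01 ± 0.28. The H-151 call was lost without PBS replicate 2 (0.62), PBS replicate 3 (0.52), H-151 replicate 1 (0.64) or H-151 replicate 3 (0.51). It stood at 51.3, 37.1 and 31.2 CPM in PBS, 65.0, 48.7 and 75.7 CPM in H-151, and 52.4, 88.2 and 51.0 CPM in SR-717. The list's median was 0.55 between SR-717 and PBS, -0.14 between H-151 and PBS and 0.30 between SR-717 and H-151, and without SR-717 replicate 1 they were 0.04 against PBS and 0.03 against H-151 for SR-717. The Fc receptor Fcgr3 stood at 307 CPM in SR-717 replicate 1 and between 39.9 and 109 CPM elsewhere. Stab2 of the same list was lowest in that library, at 2.32 CPM against 2.51 to 10.9 CPM elsewhere. Scarb1 stood at 104 CPM there, within its range of 98.3 to 123 CPM elsewhere. Of 15 phagolysosomal genes that go with Gpnmb, none passed in any comparison, with medians of 0.20, -0.14 and 0.27 in the same order, and of -0.07 against PBS and -0.01 against H-151 for SR-717 without its replicate 1. Spp1, osteopontin, ranged from 1740 to 5650 CPM, highest in PBS replicate 3.

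The genes were next set against the macrophage RNA of their own library, by taking log2 CPM minus the mean log2 CPM of the 16 other macrophage genes. That mean was 7.00, 6.47 and 6.38 in PBS, 6.69, 6.40 and 6.36 in H-151, and 7.59, 6.64 and 6.50 in SR-717. Over 30 two-sided exact permutation tests, in which 3 libraries against 3 cannot go below 0.1, the smallest p was 0.2 and every Benjamini-Hochberg adjusted p was 1. Cd163 differed most between H-151 and PBS on this scale, at -5.13 ± 0.54 (SD, n = 3) against -6.68 ± 1.14, a difference of 1.55 (exact permutation p = 0.2). Adgre1 was at -0.02 ± 0.42 in SR-717 and -0.43 ± 0.30 in PBS, a difference of 0.41 (exact permutation p = 0.3). Siglec1 had the closest replicates in SR-717, with an SD of 0.086, against 0.687 in PBS and 0.423 in H-151. In SR-717 its CPM and the mean of the other macrophage genes were both highest in replicate 1. In PBS that mean was highest in replicate 1 and Siglec1 in replicate 2. Cd14 and Marco kept their spread, with SDs of 2.18 and 2.24 in SR-717.

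**Figure D5:**
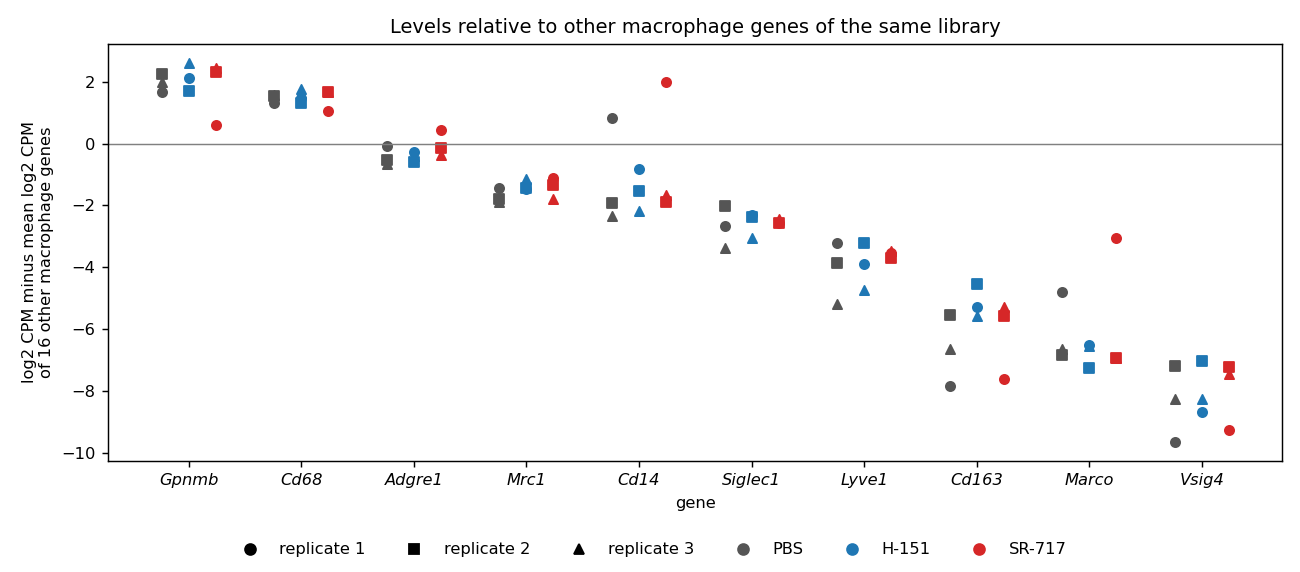
Log2 CPM of each gene minus the mean log2 CPM of 16 other macrophage genes of the same library, with 1 point per library, the colour giving the group and the shape the replicate number. Cd14 and Marco remain high and Cd163 and Gpnmb low in SR-717 replicate 1, while its Siglec1 and Lyve1 lie among the other SR-717 libraries.

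Likeness between genes is given as Pearson r of log2 CPM over the 9 libraries, as a description only, since the points share libraries and SR-717 replicate 1 carries much of the range. Adgre1 and Cd14 had r = 0.947, Cd14 and Marco 0.958, and Adgre1 and Mrc1 0.942, and without SR-717 replicate 1 these were 0.853, 0.894 and 0.814. Lyve1 and Siglec1 had r = 0.890, and 0.848 without that library. Cd163 and Marco ran in opposite directions, at -0.624 and at -0.759 without it. Cd68 and Gpnmb had r = 0.167, and 0.821 without SR-717 replicate 1, the pair that this 1 library altered most among those named here. Among all genes, those most like Cd14 were Il1rn, an interleukin receptor antagonist (0.995), Slpi, a protease inhibitor (0.993), and Hcar2, a receptor for hydroxybutyrate (0.993). Those most like Adgre1 were Gm21188 (0.990), Ptafr, the receptor of platelet-activating factor (0.987), and Gsdmd, the pore protein of pyroptosis (0.987). Marco was most like the inflammatory caspase Casp4, Rab20 and Fnip2 (each 0.992), and Mrc1 was most like Plcl2 (0.983), Apbb1ip (0.983) and Arl11 (0.981). Siglec1 was most like Trim14 (0.981), Ly6e (0.976) and Git2 (0.973), and Lyve1 was most like the matrix proteoglycan Podn (0.969), Arhgap17 (0.957) and Il2ra (0.956). Cd68 was most like Fam169b (0.968), Gm12185 (0.963) and Hs1bp3 (0.958), Cd163 was most like Zc3hc1 (0.960), Hbq1b (0.950) and the adipocyte hormone gene Adipoq (0.949), and Gpnmb was most like Grin3a (0.928), Aox1 (0.922) and Acy3 (0.920).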

How the data were processed

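Callus RNA of 9 libraries was poly(A)-selected, made strand-specific with dUTP and read from both ends, per the labels, whose extraction text speaks of cell lines although the source is bone. The authors deposited an expected count per gene without normalization, of which 8.91% were not whole, and the same table holds a TPM per gene that the authors scaled for gene length and library total. The submitters' processing notes name the build mm10, and the aligner, the counting program, its strand setting and the annotation are not given in the sources used here, so genes that overlap or share sequence are uncertain. Gene positions are from GENCODE M21 (GRCm38), matched by Ensembl identifier.

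Expected counts were rounded and tested in R 4.3.3 by edgeR 4.0.16 (TMM, filterByExpr at a count of 10 and a total of 15, glmQLFit, glmQLFTest, Benjamini-Hochberg adjustment over all genes tested) on the 6 libraries compared, without covariates. CPM values use TMM library sizes, and log2 CPM a prior count of 2. Standard errors derive from the F statistic. The code was tested on simulated data. No pair of libraries agreed within sampling noise. The same-number correlations of deviations were 0.65, 0.341 and 0.139 for SR-717 and PBS, 0.305, 0.485 and 0.503 for H-151 and PBS, and 0.342, 0.0621 and 0.0793 for SR-717 and H-151, so the replicate numbers in the labels were taken to pair libraries in the first 2 comparisons. That pairing was read from these same data, and SR-717 replicate 3 was most like PBS replicate 2. What the numbers stand for is not stated. Depth of 16987398 to 23272480 counts leaves counts under 20, as for Vsig4, imprecise.

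The 10 genes and the 16 marker lists were chosen with earlier results of these data known. The named genes are the 10 members, the 2 genes of highest mean TPM in a list, genes of a list past the study's thresholds, and the 3 genes most like each member in log2 CPM, among genes at a mean CPM of at least 1. Clec4f, Col2a1, Col10a1, Csf3r, Ngp, Ticam1, Ly96, Stab2 and Scarb1 were named after their values were seen. Alternatives were DESeq2 1.42.0, its size factors in edgeR, the replicate block, 1 fit over all 9 libraries, no filter, a minimum mean count of 50, log2(TPM + 1) with limma 3.58.1, each library left out, and the replicates numbered 1 left out together, which was added after seeing the data. Lists not described in the text gave Tchh, higher in SR-717 than in PBS by a log2 fold change of 3.77 (keratinocyte and hair markers), Siglech, at 1.89 between H-151 and PBS and -1.92 between SR-717 and H-151, and Cd209a, at -1.09 in the latter (dendritic cell markers). The monocyte, neutrophil, osteoclast, lymphatic, blood endothelium, muscle, melanocyte and callus lists had no gene past the study's thresholds.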

Additional observations from a re-analysis of the deposited data

How the results depend on the processing

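No member passed an adjusted p under 0.05 under any alternative run. At the study's thresholds, the count of members between SR-717 and PBS was 0, and 2 (Adgre1 and Cd14) with the replicate block. Between H-151 and PBS it was 1 (Cd163), 0 at a mean count of at least 50, where Cd163 was filtered out and not tested, 0 with log2(TPM + 1) and without the replicates numbered 1, and 0 to 1 when a library was left out. Between SR-717 and H-151 it was 0, 1 (Adgre1) by DESeq2, 1 (Marco) with all 9 libraries in 1 fit, 0 with the replicate block, and 0 to 3 when a library was left out, with Cd14 and Marco passing without SR-717 replicate 2, and Adgre1, Cd14 and Marco without SR-717 replicate 3. The cause of these changes was not tested. All genes past the study's thresholds numbered 73, 60 and 107, against 37 to 443, 28 to 262 and 61 to 223 under the alternatives on all or paired libraries, and 95 to 319, 43 to 698 and 64 to 661 when a library was left out. The replicate block gave 262 for H-151 against PBS (201 higher) and 143 for SR-717 against H-151, whose numbers did not pair, and changed no other call among the members.

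Of 212 member fold changes under the other tools, filters, scalings and the block, 211 kept their sign, the exception being Gpnmb between SR-717 and H-151, at -0.0247 with log2(TPM + 1). Leaving out the replicates numbered 1 from both groups reversed Marco between SR-717 and PBS (-0.0402), Adgre1 (0.0626), Cd14 (0.26) and Lyve1 (0.56) between H-151 and PBS, and Mrc1 between SR-717 and H-151 (-0.0764). Leaving out 1 library gave ranges that cross 0 for 14 of 27 fold changes. Between SR-717 and PBS these were Cd14 from -1.71 to 3.79 and Marco from -1.53 to 3.52. Between H-151 and PBS they were Adgre1 from -0.43 to 0.25, Cd68 from -0.18 to 0.05, Cd14 from -1.93 to 0.83, Mrc1 from -0.0635 to 0.55, Lyve1 from -0.64 to 0.61, Siglec1 from -0.43 to 0.16, Marco from -1.77 to 0.11 and Gpnmb from -0.11 to 0.29. Between SR-717 and H-151 they were Cd14 from -0.36 to 3.54, Mrc1 from -0.11 to 0.86, Marco from -0.16 to 3.96 and Gpnmb from -0.16 to 0.27. Depth limits Vsig4, Cd163 and Marco most.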
